A study of Mus musculus with 10 samples.

Results

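The 10 receptor genes examined here serve hormones and local mediators, other than catecholamines, that contract arteries. They were chosen by name, with earlier results of these data known. They are *Agtr1a*, *Agtr1b*, and *Agtr2* for angiotensin II, *Ednra* and *Ednrb* for endothelins, *Avpr1a* for vasopressin, *Ptgfr* and *Tbxa2r* for the prostanoids PGF2α and thromboxane A2, and *Htr2a* and *Htr2b* for serotonin (5-HT). All 10 were found among the 55426 genes of the expression table, and 7 of the 10 passed the filter on low values (a mean of at least 0.5 TPM over the aortas), as did 15668 genes of the table in all.

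The study asked what the transcription regulator PRDM16 does in vascular smooth muscle cells (VSMCs), and compared, among other readouts, how arteries of mice with and without it respond to vasoconstrictors. RNA-Seq was performed on whole thoracic aortas from 3 control mice (*Prdm16*f/f) and 3 *Prdm16*SMKO mice (*Prdm16*f/f carrying SMMHC-CreERT2). Both groups thus carried floxed *Prdm16* alleles, on a C57BL/6J background. The Cre is driven by the promoter of the smooth muscle myosin gene *Myh11*, is active after tamoxifen only, and sits on a transgene on the Y chromosome, so the knockout mice were males. Tamoxifen was given to young adults by gavage, followed by a washout. The study used both floxed mice without Cre and Cre mice as controls, whereas the labels give only the floxed genotype for these 3 aortas. Their age, their sex in the labels, and the time of day at which they were taken are not given in the sources used here. A separate ChIP-Seq experiment mapped PRDM16 binding in cells labelled as primary vascular fibroblasts of wild-type genotype. These cells received lentivirus (48 hours) that carried either Flag-tagged PRDM16 or no insert, were kept for 1 week in puromycin at 2 μg/mL, and gave 1 anti-Flag library for each virus.

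All 10 genes encode G protein-coupled receptors. Most of them couple to Gq and G11 in VSMCs, which activate phospholipase C, release calcium through the inositol trisphosphate receptor, and act with G12, G13, and RhoA to keep myosin light chain phosphorylated, so that the vessel wall contracts. The AT2 angiotensin receptor and the endothelin B receptor of endothelial cells are known for opposing, relaxing actions, and the serotonin 2B receptor is best known for its role in heart valves.

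The reference sequence just before the first annotated start of 5 of these genes is shown because the results turn on them. *Tbxa2r* and *Htr2a* were the most abundant receptors, and *Ednra*, *Avpr1a*, and *Ptgfr* were the receptors with a PRDM16 peak at their start. Each run holds the 250 bases before the start, 5′ to 3′ on the coding strand, from RefSeq on GRCm38.p6, with coordinates on that build. The capitals mark matches to a TATA box or a GC box.
Tbxa2r, chr10:81328018-81328267, forward strand: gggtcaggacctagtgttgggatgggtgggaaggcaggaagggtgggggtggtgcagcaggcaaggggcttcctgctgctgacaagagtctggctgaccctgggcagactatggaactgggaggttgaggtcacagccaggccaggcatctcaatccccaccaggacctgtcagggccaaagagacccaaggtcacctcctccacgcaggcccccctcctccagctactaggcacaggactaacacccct
Htr2a, chr14:74640624-74640873, forward strand: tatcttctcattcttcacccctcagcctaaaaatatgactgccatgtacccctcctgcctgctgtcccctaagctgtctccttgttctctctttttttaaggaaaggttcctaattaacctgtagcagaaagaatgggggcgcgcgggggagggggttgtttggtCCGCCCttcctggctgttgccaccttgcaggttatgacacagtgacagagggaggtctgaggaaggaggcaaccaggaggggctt
Ednra, chr8:77724453-77724702, reverse strand: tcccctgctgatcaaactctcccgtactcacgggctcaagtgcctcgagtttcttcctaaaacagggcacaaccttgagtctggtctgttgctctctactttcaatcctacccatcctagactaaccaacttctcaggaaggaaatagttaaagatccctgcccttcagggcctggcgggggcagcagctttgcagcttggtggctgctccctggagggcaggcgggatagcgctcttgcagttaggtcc
Avpr1a, chr10:122448249-122448498, forward strand: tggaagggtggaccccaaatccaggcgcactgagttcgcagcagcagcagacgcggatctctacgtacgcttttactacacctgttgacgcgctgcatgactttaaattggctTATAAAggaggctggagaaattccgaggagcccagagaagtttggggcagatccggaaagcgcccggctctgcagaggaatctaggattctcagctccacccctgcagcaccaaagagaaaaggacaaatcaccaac
Ptgfr, chr3:151837529-151837778, reverse strand: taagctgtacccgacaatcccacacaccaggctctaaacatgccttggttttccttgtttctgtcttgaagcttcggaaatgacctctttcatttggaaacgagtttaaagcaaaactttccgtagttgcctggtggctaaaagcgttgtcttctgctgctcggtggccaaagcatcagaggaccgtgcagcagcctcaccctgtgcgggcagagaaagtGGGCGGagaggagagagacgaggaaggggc

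The promoter table held 9 of the 10 receptor genes, *Agtr1a* not among them. The window searched for motifs was the 250 bases before the start, on both strands, and the strings were chosen after the data were seen. The TATA box (TATAAA) was found in 12.4% of all 32851 promoters searched and the GC box (GGGCGG) in 32.7%. The GATA core (AGATAA) was found in 9.99%, the E-box (CACGTG) in 6.02%, and the CArG box, which can hold a TATA box within it, in 1.47%. Of the receptor genes, *Agtr1b* had a TATA box beginning 31 bases before its start, *Avpr1a* had one 137 bases before, and *Ptgfr* and *Htr2a* had a GC box 30 and 85 bases before. The letters of the GATA core, the E-box, and the CArG box were not found in these windows for any of the 9 genes. The GC content of the 250 bases was 62.4% for *Tbxa2r*, 54.8% for *Ednra*, 53.6% for *Avpr1a*, 52.8% for *Htr2a*, and 52.0% for *Ptgfr*. The median of all promoters was 52.4%. *Tbxa2r* has 2 annotated starts, and the 250 bases before the second, at 81328703, had a GC content of 60.4%.

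*Prdm16* itself had 56.1, 47.6, and 40.3 TPM in the control against 23.3, 33.3, and 23.4 TPM in the *Prdm16*SMKO aortas. The *Prdm16*SMKO mean was 55.6% of the control mean, without overlap, and the log2 fold change of −0.85 ± 0.18 (SE) had an adjusted *P* of 0.072 by limma. The aortas were bulk tissue, in which fewer cells of a type and less RNA per cell cannot be told apart. TPM is a relative transcript level corrected for length, so it can be compared between genes. Each aorta had 13331 to 14007 genes at 1 TPM or more, 14.7% to 26.5% of the total TPM was mitochondrial, and the most abundant gene took 20.2% to 28.2%. Over all tested genes the log2 fold change had a median of −0.12 with the deposited values and of 0.00024 after rescaling the aortas by median ratio, so a receptor's change is given on both scales where the scale matters.

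None of the 7 tested receptor genes was called different between the groups (0 of 7, limma, adjusted *P* under 0.05), where 1.07% of all tested genes were called, and the count was also 0 under each of the 14 alternatives. Without adjustment, 2 of the 7, *Tbxa2r* and *Htr2a*, had a *P* under 0.05, both lower in *Prdm16*SMKO, against 12.7% of all tested genes. The 3 receptors whose groups did not overlap, *Tbxa2r*, *Htr2a*, and *Agtr1a*, were all lower in the *Prdm16*SMKO aortas, where 14.9% of all tested genes had this pattern and 4.08% had the opposite one. By sign alone, 6 of the 7 were lower and 1, *Ednra*, was higher. The median log2 fold change of the 7 was −0.42 as deposited and −0.30 after rescaling.

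**Figure D1:**
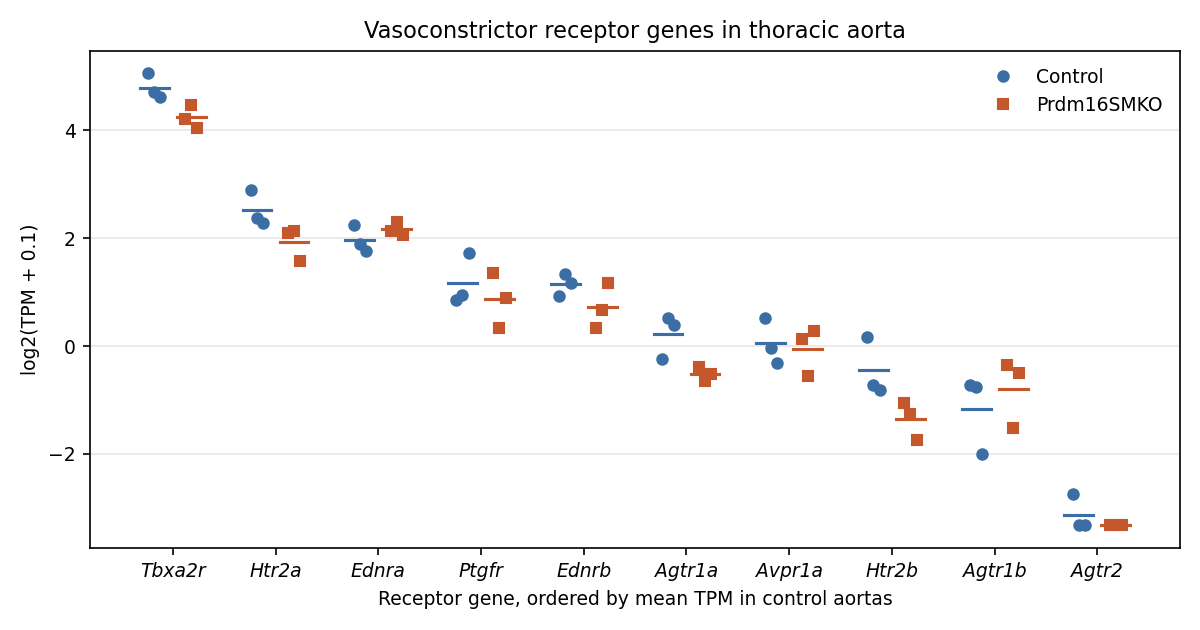
Levels of the 10 receptor genes in each of the 3 control (circles) and 3 Prdm16SMKO (squares) thoracic aortas, as log2(TPM + 0.1), with the mean of each group as a short line. Tbxa2r was above every other receptor in every aorta. The 2 groups did not overlap for Tbxa2r, Htr2a, and Agtr1a, all lower in Prdm16SMKO, a pattern found in 14.9% of all tested genes. Htr2b, which was under the filter and not tested, did not overlap either.

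*Tbxa2r*, the thromboxane A2 receptor, was the most abundant of the 10, at 33.2, 26.1, and 24.4 TPM in the control against 18.4, 22.0, and 16.5 TPM in the *Prdm16*SMKO aortas (27.9 ± 4.70 and 19.0 ± 2.77, SD, n = 3 each). Every *Prdm16*SMKO aorta was below every control aorta. The log2 fold change was −0.55 ± 0.17 (SE), with a 95% interval of −0.93 to −0.17 and an adjusted *P* of 0.20 by limma. After rescaling by median ratio the log2 fold change was −0.43 and the adjusted *P* 0.0536, the lowest of any receptor under any of the settings tried. Transcribed from the forward strand of chromosome 10, from 81328731 to 81335172 on GRCm38 in GENCODE, *Tbxa2r* stood above 74.5% of all tested genes in mean level.

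*Ptgfr*, the receptor for PGF2α, had 1.70, 1.82, and 3.19 TPM in the control against 2.46, 1.17, and 1.76 TPM in the *Prdm16*SMKO aortas. The groups overlapped, with the highest value in a control aorta and the lowest in a *Prdm16*SMKO aorta. The log2 fold change was −0.30 ± 0.36 (SE) with a 95% interval of −1.12 to 0.51 (adjusted *P* = 0.77, limma), so a fall of the size seen for *Tbxa2r* lay within the interval as well as no change.

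*Htr2a*, the serotonin 2A receptor, is the main contractile serotonin receptor of many arteries. It had 7.38, 5.10, and 4.79 TPM in the control against 4.16, 4.28, and 2.89 TPM in the *Prdm16*SMKO aortas (5.76 ± 1.41 and 3.78 ± 0.770, SD, n = 3 each). There was no overlap between them, but the gap between the lowest control and the highest *Prdm16*SMKO aorta was narrow. The log2 fold change was −0.59 ± 0.24 (SE) with a 95% interval of −1.13 to −0.048 (adjusted *P* = 0.35, limma). After rescaling it was −0.47, with an adjusted *P* of 0.25. The gene is transcribed from the forward strand of chromosome 14, from 74640840 to 74709494 on GRCm38 in GENCODE.

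*Htr2b*, the serotonin 2B receptor, had 1.03, 0.51, and 0.47 TPM in the control against 0.38, 0.32, and 0.20 TPM in the *Prdm16*SMKO aortas. Here too each *Prdm16*SMKO aorta was below each control aorta, although its mean over the 6 aortas, 0.485 TPM, was just under the filter. In the fit with no filter its log2 fold change was −0.90, with an adjusted *P* of 0.59 by limma. For both serotonin 2 receptors, then, the groups stood apart in the same direction, and neither difference passed the test. Of all tested genes, 14.9% were lower without overlap, a share that does not cover the untested *Htr2b*.

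Of the angiotensin II receptors, *Agtr1a*, which encodes the main AT1 receptor of mouse vessels, had 0.75, 1.33, and 1.22 TPM in the control against 0.66, 0.54, and 0.60 TPM in the *Prdm16*SMKO aortas. The highest *Prdm16*SMKO aorta was only slightly below the lowest control aorta, so the groups did not overlap. The log2 fold change was −0.75 ± 0.42 (SE), with a 95% interval of −1.70 to 0.21 and an adjusted *P* of 0.50 by limma. *Agtr1b*, a near-identical copy on another chromosome, had 0.51, 0.49, and 0.15 TPM in the control against 0.68, 0.25, and 0.61 TPM in the *Prdm16*SMKO aortas. Its mean was under the filter and its groups overlapped, with the highest value in a *Prdm16*SMKO aorta.

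Because some reads may not tell the 2 copies apart, their values were also summed, which was done after the data were seen. How many reads this concerns was not examined. The summed AT1 level was 1.26, 1.82, and 1.37 TPM in the control against 1.34, 0.79, and 1.21 TPM in the *Prdm16*SMKO aortas. The groups of the sum overlapped, and its log2 difference was −0.40 (exact permutation test, 2-sided, *P* = 0.20, where 0.1 is the smallest that 3 against 3 allows). The separation seen for *Agtr1a* alone was therefore not present in the sum. *Agtr2*, which encodes the AT2 receptor, was listed at 0 in 5 of the 6 aortas and at 0.05 TPM in control aorta 1.

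*Ednra*, the endothelin A receptor of VSMCs, was the 1 tested receptor with a higher mean in *Prdm16*SMKO. It had 4.64, 3.61, and 3.29 TPM in the control against 4.30, 4.84, and 4.06 TPM in the *Prdm16*SMKO aortas. The groups overlapped because control aorta 1 was above 2 of the *Prdm16*SMKO aortas. The log2 fold change was 0.20 ± 0.20 (SE), with a 95% interval of −0.26 to 0.66 and an adjusted *P* of 0.71 by limma. After rescaling by median ratio it was 0.32, with an interval of 0.0078 to 0.62 and an adjusted *P* of 0.32.

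*Ednrb*, the endothelin B receptor, had 1.80, 2.42, and 2.16 TPM in the control against 1.16, 1.5, and 2.16 TPM in the *Prdm16*SMKO aortas. One *Prdm16*SMKO aorta equalled a control aorta and the other 2 were below all controls, with a log2 fold change of −0.42 ± 0.30 (SE, adjusted *P* = 0.61, limma). The summed level of 6 endothelial markers, a cell type known to carry this receptor, was 115 to 147 TPM in the control against 84.4 to 189 TPM in the *Prdm16*SMKO aortas, so these ranges overlapped.

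*Avpr1a*, the vasopressin V1a receptor, had 1.33, 0.88, and 0.71 TPM in the control against 0.99, 0.58, and 1.11 TPM in the *Prdm16*SMKO aortas. The groups overlapped widely, and the log2 fold change was −0.11 ± 0.43 (SE, adjusted *P* = 0.95, limma). Its 95% interval ran from −1.09 to 0.87, and its sign turned when control aorta 1 (0.11) or *Prdm16*SMKO aorta 2 (0.14) was left out.

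**Figure D2:**
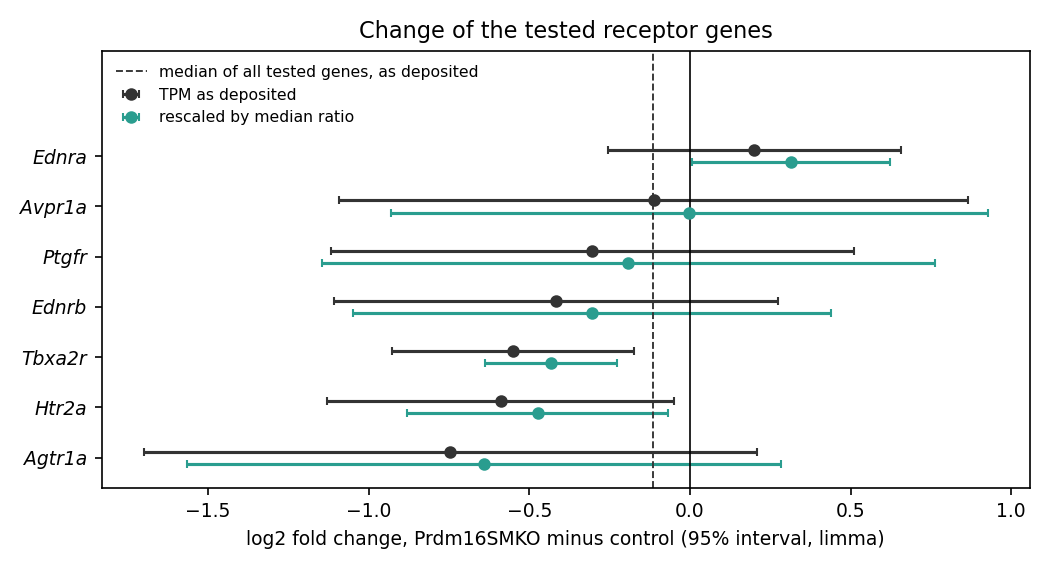
Log2 fold change, Prdm16SMKO minus control, of the 7 tested receptor genes with 95% intervals from limma, on the deposited TPM (dark) and after rescaling by median ratio (green). The intervals of Tbxa2r and Htr2a lay below 0 on both scales before adjustment for multiple testing, and the dashed line is the median of all tested genes, −0.12.

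In the control aortas the order of the levels was *Tbxa2r*, *Htr2a*, *Ednra*, *Ptgfr*, *Ednrb*, *Agtr1a*, *Avpr1a*, *Htr2b*, *Agtr1b*, and *Agtr2*. The mean of *Tbxa2r* was 4.85 times that of *Htr2a*, the next in order, and *Tbxa2r* was the higher of these in 6 of 6 aortas. Neighbours whose control ranges overlapped were *Ptgfr* and *Ednrb*, *Agtr1a* and *Avpr1a*, *Avpr1a* and *Htr2b*, and *Htr2b* and *Agtr1b*. *Htr2a* was above *Ednra* in 3 of 3 control aortas, but in none of the *Prdm16*SMKO aortas, so that the order of these receptors was the opposite one in the knockout.

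Ratios between receptors within an aorta do not depend on how the libraries were scaled, and were computed for all 21 pairs of the 7 tested receptors after the data were seen. The ratio of *Ednra* to *Tbxa2r* was 0.140, 0.138, and 0.135 in the control against 0.233, 0.220, and 0.246 in the *Prdm16*SMKO aortas. The control aortas lay very close together, and every *Prdm16*SMKO aorta was higher, with a log2 difference of 0.76 (exact permutation test, 2-sided, *P* = 0.1, the smallest possible, and 0.70 adjusted over the 21 pairs). The ratio of *Ednra* to *Htr2a* was 0.629, 0.708, and 0.687 in the control against 1.03, 1.13, and 1.40 in the *Prdm16*SMKO aortas, a log2 difference of 0.81. This pair restates the order just described and is given with no test. Only 1 other pair, *Agtr1a* to *Ednra*, had groups that did not overlap.

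The summed level of 7 smooth muscle markers was 20695 to 24137 TPM in the control against 13803 to 17802 TPM in the *Prdm16*SMKO aortas, without overlap. The sum leans on *Acta2*, the most abundant marker, with a mean of 11569 TPM in control and 7512 TPM in *Prdm16*SMKO aortas. For *Myh11* and *Smtn* the groups overlapped. Of these 7 markers, 4 were lower without overlap (14.9% of all tested genes) and 1, *Des*, which encodes desmin, was higher without overlap (4.08%). None was called on the deposited values (0 of 7, limma, against 1.07%), and 5 had an unadjusted *P* under 0.05 (against 12.7%), 4 of them lower and *Des* higher. *Des* had an adjusted *P* of 0.23 on the deposited values, of 0.0421 after rescaling by median ratio, and of 0.0365 with quantile normalization (limma). The lower receptors were therefore also set against 2 abundant contractile genes in each aorta, *Myh11* for smooth muscle myosin and *Acta2* for smooth muscle actin, which was decided after the data were seen.

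Per 1000 TPM of *Myh11*, *Tbxa2r* had 9.83, 9.75, and 9.32 TPM in the control against 7.51, 7.54, and 8.30 TPM in the *Prdm16*SMKO aortas. All *Prdm16*SMKO aortas were below all control aortas on this ratio, with a log2 difference of −0.31 (exact permutation test, 2-sided, *P* = 0.1, the smallest possible). Per 1000 TPM of *Acta2*, *Tbxa2r* had 2.67, 2.32, and 2.21 TPM in the control against 2.35, 2.67, and 2.56 TPM in the *Prdm16*SMKO aortas. The groups then overlapped and the sign turned, with a log2 difference of 0.076 (exact permutation test, *P* = 0.5).

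For *Htr2a* the same comparison was made. Its log2 difference was −0.36 relative to *Myh11*, without overlap (exact permutation test, 2-sided, *P* = 0.1), and 0.026 relative to *Acta2*, with overlap (exact permutation test, 2-sided, *P* = 0.9). Both receptors were thus lower relative to *Myh11* and not relative to *Acta2*. Of the 6 smooth muscle markers with a lower mean log2 level, *Myh11* fell least (−0.24) and *Acta2* most (−0.63). The log2 differences of the ratios restate these changes and those of the receptors, and the markers between them were not used as denominators. The part of the smooth muscle marker levels in the lower values of the receptors was not tested. The summed levels of the markers for endothelium, fibroblasts, macrophages, brown adipocytes, skeletal muscle, Schwann cells, pericytes, and red blood cells overlapped between the groups. Brown adipocyte markers spread widely within a group, from 111 to 544 TPM in the control and from 128 to 433 TPM in the *Prdm16*SMKO aortas.

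**Figure D3:**
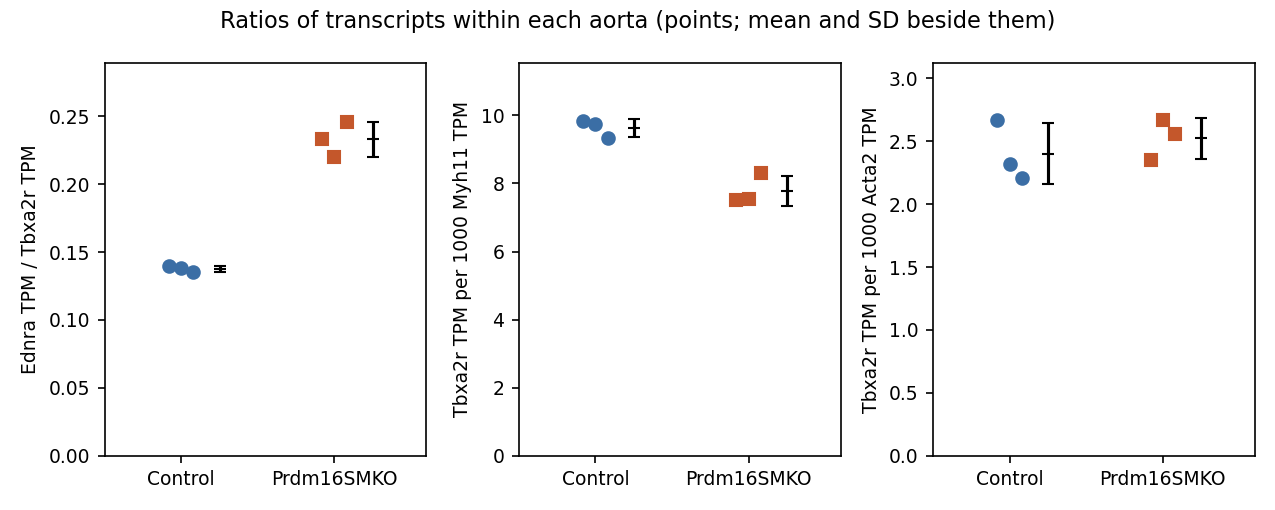
Ratio of Ednra to Tbxa2r, and Tbxa2r per 1000 TPM of Myh11 or of Acta2, in each control (circles) and Prdm16SMKO (squares) aorta, with the mean and SD beside the points. The groups did not overlap in the first and second panels (log2 differences of 0.76 and −0.31) and overlapped in the third (0.076).

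Among the 7271 genes with a mean of at least 10 TPM, the 3 whose levels followed *Tbxa2r* most closely over the 6 aortas were *Msn*, *Dnajb11*, and *Chsy1*, each with a Pearson *r* of 0.998. For *Htr2a* they were *Nono* (0.998), *Itpr1* (0.998), and *Clint1* (0.997). *Itpr1*, which encodes the main inositol trisphosphate receptor of smooth muscle, had 172 ± 19.9 TPM in control and 137 ± 15.2 TPM in *Prdm16*SMKO aortas (SD), a log2 difference of −0.33 that was not called (adjusted *P* = 0.33, limma). These correlations describe 6 libraries that share their scaling, and were picked as the highest of many.

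The PRDM16 ChIP-Seq list was then searched for peaks at the receptor genes, with a promoter peak taken as a peak centred at most 2 kb from an annotated start. Of the 10 receptor genes, 3 had one (30%), *Ednra*, *Avpr1a*, and *Ptgfr*, beside 26.0% of all 26180 curated RefSeq genes. All 3 were among the 7 tested receptors, and 3 of 7 is close to the 43.8% of all tested curated genes that had one. The vector library had 0 peaks in or near any receptor gene, but its list held only 67 peaks in all, so this count says little. With 1 library per virus the peaks have no replicate, and they were measured in fibroblasts and not in VSMCs.

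All 3 peaks had their centre downstream of the start. The *Avpr1a* peak was the longest and strongest of them, with 1395 bp (chr10:122448432-122449826), its centre 630 bp downstream of the start at 122448499, and its summit in the coding sequence. Its fold enrichment of 7.27 was above that of 85.4% of the 11271 peaks of the library, with a −log10 q of 11.5. The *Ednra* peak had 230 bp (chr8:77723992-77724221), its centre 346 bp downstream of the start at 77724452, and its summit in the 5′ UTR. Its fold enrichment of 5.01 was above that of 47.4% of the peaks, with a −log10 q of 5.14.

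The *Ptgfr* peak was the weakest, with 394 bp (chr3:151837150-151837543), its centre 182 bp downstream of the start at 151837528, and its summit in the 5′ UTR. Its fold enrichment of 4.22 was above that of 18.4% of the peaks, with a −log10 q of 3.19. With a promoter defined as 1 kb upstream to 100 bp downstream, 0 of the 10 receptors had a promoter peak, and with a q of at most 1e-05, 2 did (*Ednra* and *Avpr1a*). The 30 bases around each summit, 5′ to 3′ on the coding strand of GRCm38.p6, are shown because they mark where the signal was highest, and none of their letters is set in capitals.
Avpr1a summit, chr10:122449134-122449163, forward strand: ctgggacatcacctaccgcttccgcgggcc
Ednra summit, chr8:77724115-77724144, reverse strand: gctggcccgtgcgcggacctggagctgtct
Ptgfr summit, chr3:151837447-151837476, reverse strand: ctggagttcaggacacaataggtcctgcgg

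**Figure D4:**
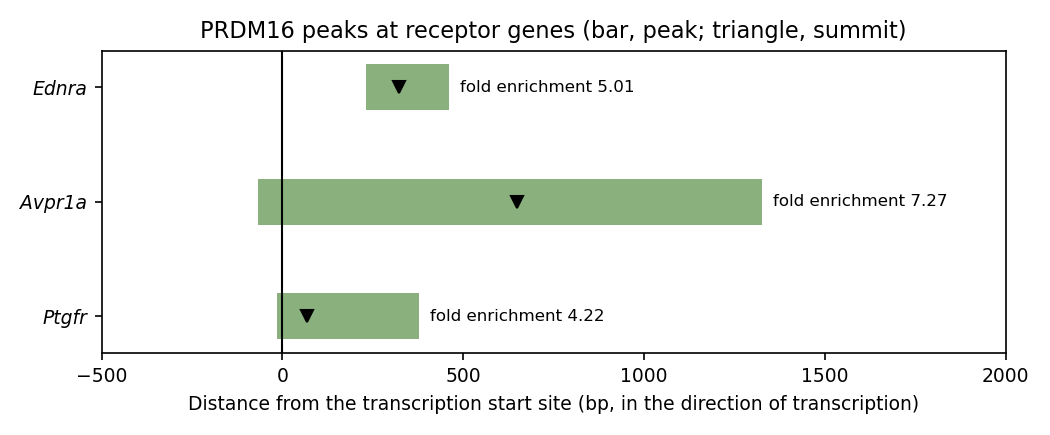
PRDM16 peaks at Ednra, Avpr1a, and Ptgfr by their distance in bp from the annotated start in the direction of transcription, with the peak as a bar, its summit as a triangle, and the authors' fold enrichment beside it. Each peak reached further downstream of the start than upstream, and that of Avpr1a was the longest, at 1395 bp.

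The receptors with the largest differences in RNA had no such peak. The peak nearest to *Tbxa2r* had its centre 21.2 kb from the second of its 2 annotated starts and 14.7 kb beyond the gene. This peak lay at the start of *Hmg20b*, with a fold enrichment of 7.38. For the other receptors the nearest peak was 65.7 kb (*Htr2b*), 107 kb (*Agtr1a*), 212 kb (*Agtr1b*), 307 kb (*Htr2a*), 497 kb (*Ednrb*), and 1193 kb (*Agtr2*) from the start. The log2 fold changes of the 3 receptors with a promoter peak were 0.20, −0.11, and −0.30, and those of the 4 tested receptors without one ran from −0.42 to −0.75. After rescaling by median ratio, *Ednra*, with a peak, was at 0.32 and *Ednrb*, without one, at −0.30, so the size of the change did not order the receptors by their peaks on both scales. No test was made between receptors.

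The other genes of these pathways were taken from lists of ligands and their enzymes, further receptors for the same ligands, signal transduction, receptor regulation, and the α1-adrenergic receptors, 70 genes of which 54 were tested. Of the 54, 2 were called by limma, *Rgs4* (higher in *Prdm16*SMKO) and *Ace* (lower), where 1.07% of all tested genes were called. An unadjusted *P* under 0.05 was found for 14 of the 54, against 12.7% of all tested genes. The counts by list below are small and stand against these same shares. By sign 35 were lower and 19 higher, with a median log2 fold change of −0.13, against −0.12 for all tested genes. *Agt*, *Avp*, *Edn1*, *Ptgs2*, *Ren1*, *Agtrap*, *Grk3*, *Grk5*, and *Htr1d* were named after their values were seen.

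Among the ligands and their enzymes, 1 of 11 tested genes was called. *Ace*, the angiotensin-converting enzyme, which makes angiotensin II and is carried by endothelium and other vessel cells, had 137, 114, and 124 TPM in the control against 85.3, 68.6, and 70.3 TPM in the *Prdm16*SMKO aortas. The groups stood clearly apart, and the log2 fold change was −0.74 ± 0.13 (SE, adjusted *P* = 0.036, limma). The adjusted *P* was 0.0514 after rescaling by median ratio, and it was 0.0742 to 0.119 when any 1 aorta other than *Prdm16*SMKO aorta 1 was left out.

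*Edn1*, the precursor of endothelin-1, had 8.09, 5.45, and 5.45 TPM in the control against 2.69, 1.67, and 0.85 TPM in the *Prdm16*SMKO aortas, the largest difference among the tested genes of these lists. Its log2 fold change of −1.92 ± 0.38 (SE) had an adjusted *P* of 0.057 by limma, which passed the threshold under 3 of the 14 alternatives. *Ptgs2*, the inducible cyclooxygenase that feeds prostanoid synthesis, had a mean of 9.72 TPM in control and 4.15 TPM in *Prdm16*SMKO aortas (log2 fold change −1.23, adjusted *P* = 0.072, limma). *Ren1*, which encodes renin, was under the filter, at 0.48, 0.83, and 0.57 TPM against 0.07, 0.09, and 0.07 TPM, without overlap.

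The abundant *Ece1*, which cleaves the endothelin precursor, had a log2 fold change of 0.45 (adjusted *P* = 0.33, limma). *Ece1* lies 16.4 Mb from *Prdm16* on chromosome 4. *Akr1b3*, an abundant aldose reductase gene whose product can make PGF2α, had a log2 fold change of −0.17 (adjusted *P* = 0.55, limma). For endothelin, by sign, the ligand gene *Edn1* and the receptor gene *Ednrb* (−0.42) were lower and the receptor gene *Ednra* (0.20) was higher. None of these genes was called. *Agt*, the precursor of angiotensin II, and *Avp*, that of vasopressin, which come from other organs, were below the filter.

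None of the 5 tested further receptors for these ligands was called, and 0 of the 5 had an unadjusted *P* under 0.05 (limma). *Lnpep*, an aminopeptidase known as the AT4 receptor, had a log2 fold change of −0.24 (adjusted *P* = 0.46, limma), *Ptger3*, a prostaglandin E2 receptor, one of −0.36 (0.56), and *Htr1b*, a contractile serotonin receptor, one of −0.43 (0.48). *Htr1b* had 17.1 ± 3.21 TPM in control and 12.9 ± 3.47 TPM in *Prdm16*SMKO aortas (SD, n = 3 each), so that it, and not *Htr2a*, was the most abundant serotonin receptor gene of these lists. *Htr1d*, another serotonin receptor under the filter, had 0.04, 0.05, and 0.05 TPM in the control against 0.64, 0.91, and 0.40 TPM in the *Prdm16*SMKO aortas. It lies 17.9 Mb from *Prdm16* on chromosome 4, and its log2 fold change in the fit without a filter, 2.3, had an adjusted *P* of 0.11 by limma.

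In the signal transduction list, 0 of 23 tested genes were called (limma, 4 at an unadjusted *P* under 0.05, all lower), and the median log2 fold change was −0.12, the same as over all tested genes. The most abundant members were *Ppp1r12a*, a subunit of myosin phosphatase, *Ppp1r14a*, its inhibitor, and *Plcb4*, a phospholipase C. Their log2 fold changes were 0.023, −0.18, and −0.35, with adjusted *P* values of 0.98, 0.63, and 0.29 by limma.

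In the list of receptor regulation, 1 of 12 tested genes was called. *Rgs4*, which speeds the shut-off of Gq and Gi signalling, had 67.7, 66.0, and 72.3 TPM in the control against 136, 147, and 109 TPM in the *Prdm16*SMKO aortas. It rose, with a log2 fold change of 0.91 ± 0.13 (SE, adjusted *P* = 0.015, limma), and passed the threshold under 9 of the 14 alternatives. Without any 1 control aorta, or without *Prdm16*SMKO aorta 1, its adjusted *P* was 0.0546 to 0.0687.

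*Rgs5*, its neighbour on chromosome 1 and the most abundant regulator, had 377, 348, and 299 TPM in the control against 630, 763, and 494 TPM in the *Prdm16*SMKO aortas. Its log2 fold change of 0.87 ± 0.17 (SE) had an adjusted *P* of 0.052 by limma, and of 0.00636 after rescaling. *Mtus1*, which encodes an AT2 receptor-interacting protein, had a log2 fold change of −0.26 (adjusted *P* = 0.56, limma). The receptor kinases *Grk5* and *Grk3* had log2 fold changes of −0.52 and −0.61 (adjusted *P* = 0.17 and 0.23, limma), without overlap between the groups. Of the 12 tested genes of this list, 4 were lower without overlap (14.9% of all tested genes) and 2 were higher without overlap (4.08%).

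*Agtrap*, which encodes a protein that binds the AT1 receptor and promotes its internalization, had 13.3, 11.9, and 10.8 TPM in the control against 6.94, 7.44, and 6.39 TPM in the *Prdm16*SMKO aortas. Its log2 fold change was −0.78 ± 0.15 (SE), with an adjusted *P* of 0.054 by limma and of 0.0133 after rescaling. *Agtrap* lies 6.23 Mb from *Prdm16*, and 21 of the 252 tested genes within 20 Mb of *Prdm16* were called (8.33%), against 0.954% of those elsewhere. The part of this position in its difference was not tested. No receptor gene of the 10 lies on chromosome 4.

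The α1-adrenergic receptors, the catecholamine counterparts of these receptors, were also tested with 0 of 3 called (limma, 1 at an unadjusted *P* under 0.05). *Adra1d* had 93.2, 69.6, and 54.1 TPM in the control against 36.7, 49.2, and 29.5 TPM in the *Prdm16*SMKO aortas, a log2 fold change of −0.90 (adjusted *P* = 0.13, limma). *Adra1d* was above *Tbxa2r* in level in every aorta, and the ratio of *Tbxa2r* to *Adra1d* overlapped between the groups, with a log2 difference of 0.35 (exact permutation test, 2-sided, *P* = 0.2). *Adra1a* and *Adra1b* had log2 fold changes of −0.31 and 0.23 (adjusted *P* = 0.87 and 0.80, limma), on levels near those of *Ptgfr* and *Ednrb*.

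**Figure D5:**
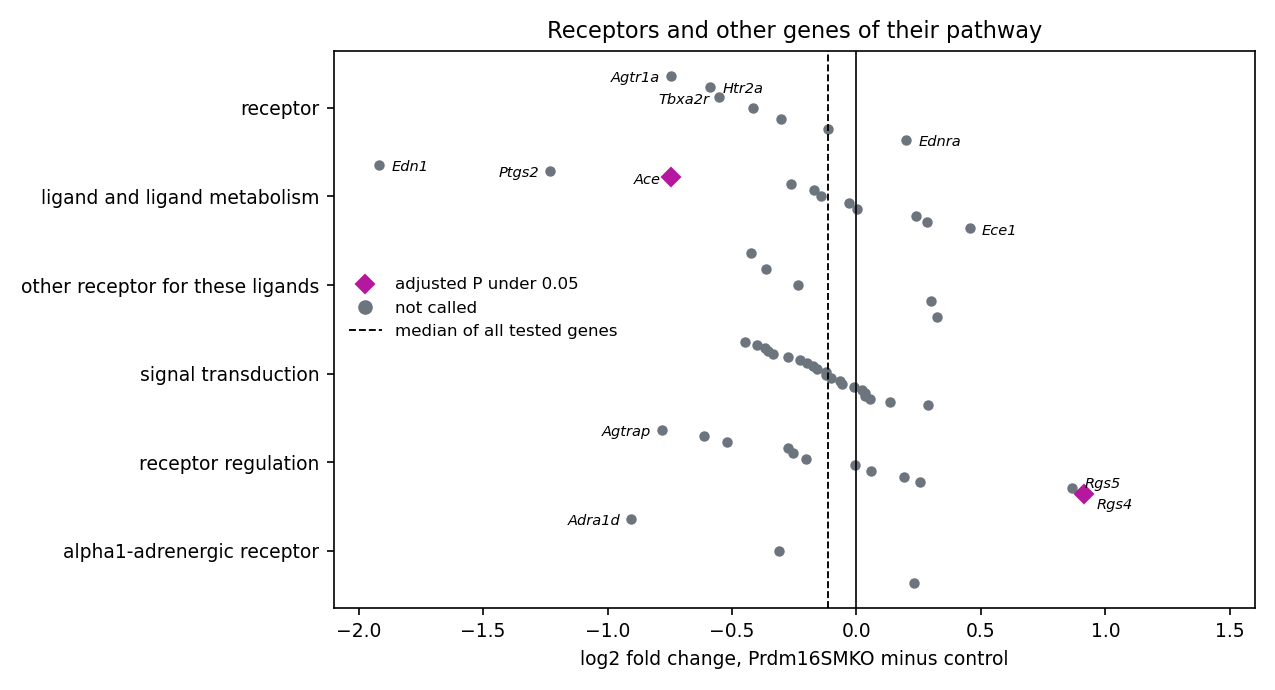
Log2 fold change, Prdm16SMKO minus control, of tested receptor and pathway genes, by list (1 point per gene). Diamonds are the 2 genes called by limma, Ace (−0.74) and Rgs4 (0.91), and the dashed line is the median of all tested genes, −0.12.

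Promoter peaks were found at 34 of the 70 pathway genes (48.6%), of which 20 were among the 25 signal transduction genes. Among tested genes, 19 of the 23 signal transduction genes and 3 of the 7 receptors had one, beside 43.8% of all tested curated genes, and no difference between lists was tested. *Agtrap* and *Adra1d* had one, and *Ace*, *Edn1*, *Rgs4*, and *Rgs5* did not. With the window from 1 kb upstream to 100 bp downstream the count was 14 of 70.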

How the data were processed

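The TPM of 3 control and 3 *Prdm16*SMKO thoracic aortas were deposited by the authors, 1 column per aorta, from poly(A)-selected libraries. Columns named WT and KO were matched by number to the control and *Prdm16*SMKO labels. The submitters' processing notes list STAR 2.7.8a, RSEM 1.3.3, cutadapt 2.3, and Bowtie2 2.3.4.1, and the annotation behind the TPM is not given in the sources used here. No read counts were used, so depth is unknown and no counting interval is given. The labels do not say whether the aortas came from separate litters or days, and *P* values measure the spread between these samples.

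Groups were compared with limma 3.58.1 (R 4.3.3, lmFit, eBayes with trend, no covariate) on log2(TPM + 0.1), a scale that understates changes of low genes. The 15668 genes that averaged 0.5 TPM or more were tested, adjusted together by Benjamini-Hochberg, and called under 0.05. Other settings were a pseudocount of 1 or 0.01, a filter at 1 TPM or none, median-ratio rescaling, quantile normalization, no trend, a replicate block, and the omission of each aorta.

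For ChIP-Seq, the authors used bowtie2 (GRCm38) and MACS2 per library at q 0.01 with the human genome size preset, and the library that served as control is not stated. The deposited lists give fold enrichment (a ratio over local background), −log10 p, −log10 q, and an integer score for each peak, and the score and −log10 p were not used. Peaks were placed by their centre on curated RefSeq starts (GRCm38.p6). Gene positions are from GENCODE vM21 (55154 of 55426 gene IDs matched). The IgG libraries were not used here.

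The receptors and all lists were chosen with earlier results of these data known. Genes named are the 10 receptors, *Prdm16*, the called genes and the 3 most abundant of each list, the α1-adrenergic receptors, and the 3 genes most alike to each of the 2 most abundant receptors. Others are said to be named after their values were seen. In the signal transduction list, 1 gene is counted but not reported or drawn here. Further software was scipy 1.17.1, numpy 2.4.6, pandas 2.3.3, pysam 0.24.0, matplotlib 3.10.9, and Python 3.11.15.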

Additional observations from a re-analysis of the deposited data

How the results depend on the processing

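None of the receptor genes was called under any of the 14 alternatives to the test, and 94 of the 96 alternative values of their log2 fold changes kept their sign. The 2 exceptions were *Avpr1a* without control aorta 1 (0.11) and without *Prdm16*SMKO aorta 2 (0.14), over a range of −0.30 to 0.14 with 1 aorta left out. The other filters, the fit without a trend, and the replicate block leave a log2 fold change as it was. Those settings could not turn a sign, though they are among the 96 values. Of the ratios added after the data were seen, those to *Acta2* turned the sign of *Tbxa2r* (0.076) and *Htr2a* (0.026). *Agtr1a* and *Avpr1a* gave no value with a mean TPM of at least 1, being below it. Adjusted *P* values over the alternatives ran from 0.0536 to 0.463 for *Tbxa2r* and from 0.240 to 0.653 for *Htr2a*. Over all tested genes, 168 were called (61 higher, 107 lower), 110 with no filter, 411 after median-ratio rescaling (196 higher, 215 lower), 392 after quantile normalization (189 higher, 203 lower), 48 without a trend, and 91 to 141 with 1 aorta left out. Of the pathway genes, 2 were called, 5 with a mean TPM of at least 1, 1 with no filter, 0 without a trend, and 0 to 2 with 1 aorta left out (0 without any of control aortas 1, 2, or 3, and 1 without *Prdm16*SMKO aorta 2). The log2 fold change of *Prdm16* was −0.85, and passed the threshold after median-ratio rescaling (−0.73) and quantile normalization (−0.72) and without *Prdm16*SMKO aorta 2, over a range of −1.02 to −0.73 with 1 aorta left out. The window from 1 kb upstream to 100 bp downstream gave promoter peaks at 0 receptor genes and 14 pathway genes in place of 3 and 34. Same-numbered aortas had correlations of −0.0246, −0.0700, and −0.00896 in their deviations from the group means. With 3 aortas per group, these values cannot exclude that the replicate numbers stand for pairs. A fit with the replicate number as a block called 184 genes, 4 pathway genes, and 0 receptor genes. The causes of these changes were not tested. The depth behind the TPM is unknown, so the precision of the low receptors (*Agtr1b*, *Agtr2*, *Htr2b*) rests on the spread of 3 aortas alone.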
